A study of Mus musculus with 18 samples.

Results

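The genes described here make, sense, store and export sterols. They are 29 of the 25254 transcript clusters with a gene symbol, among 28856 in all, on an Affymetrix Mouse Gene ST array, and were chosen by name. They comprise 7 genes of the mevalonate pathway, 10 of the sterol branch that follows it, 5 of the machinery that switches both on, and 7 for sterol transport, storage and efflux. All 29 had a row, and 3 (*Fdft1*, *Idi1* and *Scap*) had several. For each of these, the cluster carrying the symbol alone was taken or, where there was a choice, the brighter one. Of the cellular uptake of sterol, only *Mylip* is on the list.

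The 18 arrays came from mouse glomeruli at 5 weeks of age, 3 for each of 6 groups. *Cd2ap* encodes an adaptor protein of the podocyte slit diaphragm, and mice without it develop glomerulosclerosis. Mutant mice (*Cd2ap*-/-, line B6.129X1-Cd2ap tm1Shaw/J) were set against wild type mice, and both genotypes carried a GFP reporter. The reporter was *Meis1-GFP* for mesangial cells, *Tie2-GFP* for endothelial cells and another line for podocytes, so cell type and reporter line cannot be told apart. Glomeruli were sieved and dissociated, and GFP positive cells were sorted by FACS. The mesangial control columns carry one plus and one minus sign, while their sample records give the genotype as wild type, which is used here. Their sample titles read control, where the titles of the other cell types read wild type. Whether these mesangial controls were heterozygous is not settled by the labels. Each value is a signal on a linear scale made by RMA, a method that corrects background, aligns the arrays and summarizes the probes. Signals of different genes depend on their probes and are not compared with each other. Arrays within a group are named A, B and C, and these letters pair nothing across groups.

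Cholesterol synthesis starts from acetyl-CoA, runs through mevalonate to farnesyl pyrophosphate and then, through squalene and lanosterol, to cholesterol. When sterol in the endoplasmic reticulum is low, Scap carries the SREBP factors to the Golgi, where they are cut and released to switch on nearly all of these enzymes. Insig proteins hold Scap back when sterol is high. When oxysterols accumulate, the LXR receptors switch on the exporters *Abca1* and *Abcg1* and the ubiquitin ligase *Mylip*, which removes lipoprotein receptors.

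The promoters of the members were searched for elements known from this switch. RefSeq (GRCm38.p6) windows of 300 bases, from 250 before to 50 after a start, were on hand for 24 of the 29 genes, and not for *Fdps*, *Fdft1*, *Sqle*, *Stard4* and *Abcg1*. They were searched on both strands for TCACNCCAC (an SREBP site), CCAAT (bound by the SREBP partner NF-Y), GGGCGG (a GC box, bound by Sp1) and CACGTG (an E box). These motifs were free to overlap. The SREBP site was in 1 of the 24 genes, *Hmgcs1*, and in 1.44% of 27025 symbols with a window. CCAAT was in 19 of the 24 (79.2%) and in 41.1% of all symbols. GGGCGG was in 21 of the 24 (87.5%) and in 38.2% of all symbols, and CACGTG in 6 of the 24 (25.0%) and in 8.09% of all. A match to these letters is a description and not a binding site shown to be used. Only these letters in these windows were searched, so a gene without a match is not shown to lack such a site. The 150 bases before the start are printed for *Hmgcs1*, which holds the SREBP site, for *Nsdhl*, *Sc5d* and *Abca1*, which were called in a genotype comparison below, and for *Insig1*, which differed between the cell types. Capitals mark the motifs on either strand. The stretch of *Abca1* precedes a start inside the gene, whose RefSeq span reaches 53159988, so part of it overlaps the gene.
Hmgcs1, chr13:119690201-119690350, plus strand: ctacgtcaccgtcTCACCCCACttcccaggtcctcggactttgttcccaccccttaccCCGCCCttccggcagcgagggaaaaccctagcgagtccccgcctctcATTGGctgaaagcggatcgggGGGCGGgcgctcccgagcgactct
Nsdhl, chrX:72918371-72918520, plus strand: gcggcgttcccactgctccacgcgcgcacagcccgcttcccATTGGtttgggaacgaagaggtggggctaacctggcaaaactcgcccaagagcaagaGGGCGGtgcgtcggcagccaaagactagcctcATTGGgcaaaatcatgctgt
Sc5d, chr9:42264301-42264450, minus strand: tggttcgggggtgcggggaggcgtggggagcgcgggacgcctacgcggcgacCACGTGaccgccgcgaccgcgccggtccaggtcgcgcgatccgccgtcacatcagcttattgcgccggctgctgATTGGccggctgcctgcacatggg
Insig1, chr5:28071262-28071411, plus strand: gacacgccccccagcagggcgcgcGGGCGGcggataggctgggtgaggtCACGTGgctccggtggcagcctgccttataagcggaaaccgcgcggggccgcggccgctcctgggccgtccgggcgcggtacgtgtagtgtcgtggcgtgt
Abca1, chr4:53159896-53160045, minus strand: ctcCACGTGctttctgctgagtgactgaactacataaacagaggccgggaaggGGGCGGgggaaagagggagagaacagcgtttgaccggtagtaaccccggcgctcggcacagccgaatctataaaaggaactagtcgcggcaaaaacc
In *Hmgcs1* the first capitals are the SREBP site and the others are GC boxes and a CCAAT box read on the minus strand (ATTGG). *Nsdhl* holds CCAAT boxes on both sides of a GC box, *Sc5d* an E box and a CCAAT box, and *Insig1* and *Abca1* each a GC box and an E box.

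Several arrays stood apart before any sterol gene was read. Wild type mesangial array C carried markers of other cells: its summed podocyte markers (7 genes) reached 3536 against 785 and 958 in arrays A and B. Its summed endothelial markers (8 genes) reached 7678 against 2310 and 2699, and the leukocyte markers (13 genes) 1653 against 763 and 682. Its tubule markers (6 genes) summed to 764 against 329 and 312. Wild type podocyte array B had a tubule sum of 657 against 387 and 394 in arrays A and C, and a leukocyte sum of 1324 against 889 and 995. Mutant mesangial array B had a leukocyte sum of 2313, against 860 and 810 in mutant arrays A and C. There *Tyrobp* was at 1261 (168 and 159 in arrays A and C) and *Ptprc* at 361 (78.7 and 67.3). No other leukocyte marker of that array was above the 105 of *Cd68*, so the sum rests chiefly on these genes. Wild type podocytes held more endothelial marker signal (4332 to 5754) than mutant podocytes (762 to 2580), and more mesangial marker signal (2291 to 3098 against 755 to 2024). The endothelial array A labelled mutant had a leukocyte sum of 1485, against 738 to 1088 in the other endothelial arrays. Mutant podocyte arrays were the least alike, with Pearson's r of 0.967 to 0.971 across the log2 signals of all clusters, where pairs within the other groups had 0.980 to 0.992. The summed defining markers of each sorted cell type were higher in its own arrays than in those of the other types. The summed mesangial markers (6 genes) were nevertheless lower in mutant mesangial arrays (5341 to 6001) than in wild type ones (7441 to 8477), without overlap. Among these genes *Meis1* alone had a higher mean in the mutant arrays (231 to 321, against 189 to 224 in wild type ones). The signal of *Cd2ap* was 922, 1037 and 1123 in wild type mesangial arrays and 819, 870.4 and 797 in mutant ones. It was 2108, 1670.4 and 1546 in wild type and 1512, 1503 and 1478 in mutant podocytes. In endothelial cells it was 839.8, 859 and 757 in wild type arrays and 891, 966 and 920.4 in those labelled mutant, so it was not lower there. Where the probes lie relative to the disrupted part of the gene is not given in the sources used here, so this signal is a weak check of the labels. Endothelial arrays are therefore called labelled mutant throughout, and the directions there rest on the label. In mutant mesangial cells and podocytes the signal was lower but not lost, so the genotypes there rest on the labels too.

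Detection limited what could be tested. The minimum was a signal of 100 in at least 1 of the 6 arrays of a comparison, a little above the median signal of an array (62.8 to 71.6). *Hmgcs1*, *Srebf2*, *Insig1*, *Insig2*, *Scap*, *Soat1* and *Mylip* reached it in all 18 arrays. *Acat2*, *Pmvk*, *Mvd*, *Idi1*, *Lss* and *Tm7sf2* reached it in no array and entered no test. The remaining 16 members reached it in 1 to 17 arrays. Of the marker genes of the pathway named with the list, *Fdps* reached it in 13 arrays, *Fdft1* in 6 and *Mvk* in 3. With the limits of the study's low stringency array screen, a gene was called where its fold change exceeded 1.5 and its p was below 0.05. The p was taken without adjustment here. Adjusted p values are Benjamini-Hochberg values over all transcript clusters tested in the comparison.

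In *Cd2ap* mutant mesangial cells, 2 enzymes of sterol synthesis and a sterol carrier were called lower and a sterol exporter was called higher. *Fdft1*, which makes squalene, *Nsdhl*, which takes part in removing methyl groups from lanosterol, and *Stard4*, which carries cholesterol between membranes, were called lower by 1.55 to 1.66 fold. *Abca1*, which passes cholesterol to apolipoprotein A-I, was called higher by 1.94 fold. Thus 20 members were tested, 1 was called higher and 3 lower. Of all 11457 clusters tested, 2.08% were called higher and 3.12% lower. At an adjusted p under 0.05, which 2.92% of all clusters passed in either direction, *Abca1* and *Fdft1* remained. Without the minimum, over all clusters, their adjusted p values were 0.0902 and 0.0524. *Fdft1* and *Stard4* entered the test only through wild type arrays, the group where they are high (1 and 2 of 3 at the minimum, and 0 mutant arrays). Their place among the lower calls therefore carries no weight as a count. Their folds are not exact, since every mutant array of both genes lay below the minimum. The summed mesangial markers were also lower in the mutant arrays, as given above, and their part in these differences was not tested.

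*Fdft1*, squalene synthase, stood at the branch where carbon is committed to sterol. Its signal was 112, 87.3 and 97.1 in the wild type mesangial arrays A, B and C and 61.9, 65.9 and 60.3 in the mutant ones. Every mutant array was below every wild type array and below the minimum. The difference, mutant minus wild type on the log2 scale, was -0.65 ± 0.11 (SE) with an adjusted p of 0.0376. *Fdft1* also shares 2 further clusters with the neighbouring gene *Ctsb*, a lysosomal protease. One of them, which lists *Fdft1* first, had a log2 difference of -0.71 ± 0.17 (SE) in mesangial cells, with an adjusted p of 0.0781. The other, which lists *Ctsb* first and is the brightest, had a log2 difference of 0.19 ± 0.16 (SE) and an adjusted p of 0.545. The direction for *Fdft1* thus depended on which cluster stands for it.

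*Nsdhl*, a sterol dehydrogenase, had signals of 185, 280.0 and 215 in wild type and 125, 134 and 146 in mutant mesangial arrays, without overlap. Its log2 difference was -0.73 ± 0.16 (SE), with an adjusted p of 0.0669. Without wild type array B, its highest, the difference was -0.56, under the fold limit. *Sc5d*, which forms a late double bond of the sterol ring, was at 101, 190.2 and 119 in wild type and 93.6, 98.02 and 77.4 in mutant mesangial cells. Its arrays also did not overlap, but the log2 difference of -0.56 ± 0.24 (SE) missed both the fold limit and the p threshold (adjusted p = 0.231). Wild type array B again held the extreme value. Without it the difference was -0.30, and without wild type array A it was -0.76 and passed the call.

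*Hmgcs1*, which makes the precursor of mevalonate and carries the SREBP site printed above, was at 289.8, 268 and 240.4 in wild type and 165, 237 and 205 in mutant mesangial arrays. All mutant arrays were below all wild type arrays, by a log2 difference of -0.41 ± 0.15 (SE), short of the fold limit (adjusted p = 0.185). *Fdps*, which makes farnesyl pyrophosphate, was at 126, 115 and 118 and 89.0, 118 and 124. Its groups overlapped, with a log2 difference of -0.13 ± 0.14 (SE) and a 95% interval of -0.46 to 0.20. *Mvk*, mevalonate kinase, was at 92.0, 102 and 73.0 and 87.4, 84.4 and 95.6, also overlapping, with a log2 difference of 0.01 ± 0.14 (SE) and an interval of -0.31 to 0.34. *Cyp51*, the lanosterol demethylase, had a log2 difference of -0.45 ± 0.18 (SE) with 1 mutant array inside the wild type range. *Idi1*, which isomerizes the first isoprenoid, was dim throughout, at 63.2, 75.0 and 54.7 in wild type and 39.8, 68.1 and 32.2 in mutant arrays, and was not tested. *Lss*, which closes the sterol ring, was also below the minimum, at 50.2, 61.3 and 51.9 and 51.8, 52.9 and 52.0.

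Over all 17 enzymes, without the minimum, 14 had a lower mean in mutant mesangial cells, where 44.7% of all clusters did. Among the clusters tested the share was 54.6%. The median log2 difference of the 17 was -0.23, beside 0.01 over all clusters and -0.02 over those tested. Every mutant array lay below every wild type array for 7 of them (*Acat2*, *Hmgcs1*, *Fdft1*, *Nsdhl*, *Hsd17b7*, *Sc5d* and *Dhcr7*), an arrangement seen for 8.9% of all clusters. None lay fully above, where 10.4% of all clusters did. The median of the enzymes stood at -0.42, -0.11 and -0.15 in mutant arrays A, B and C, relative to the wild type mean of each gene. It was below 0 in all 3, and lowest in array A, which had the lowest signal of its group for 7 of the 17, beside 36.6% of the clusters that reached the minimum. Leaving out 1 mesangial array at a time moved the group's median between -0.29 and -0.17. Without wild type array C and mutant array B, the arrays with markers of other cell types, *Fdft1*, *Nsdhl* and *Abca1* kept their calls, *Stard4* lost its own (log2 difference -0.35), and 4 members in all were called lower. In that smaller fit none of these 4 genes had an adjusted p under 0.05 (*Abca1* 0.0812, *Fdft1* 0.147).

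**Figure D1:**
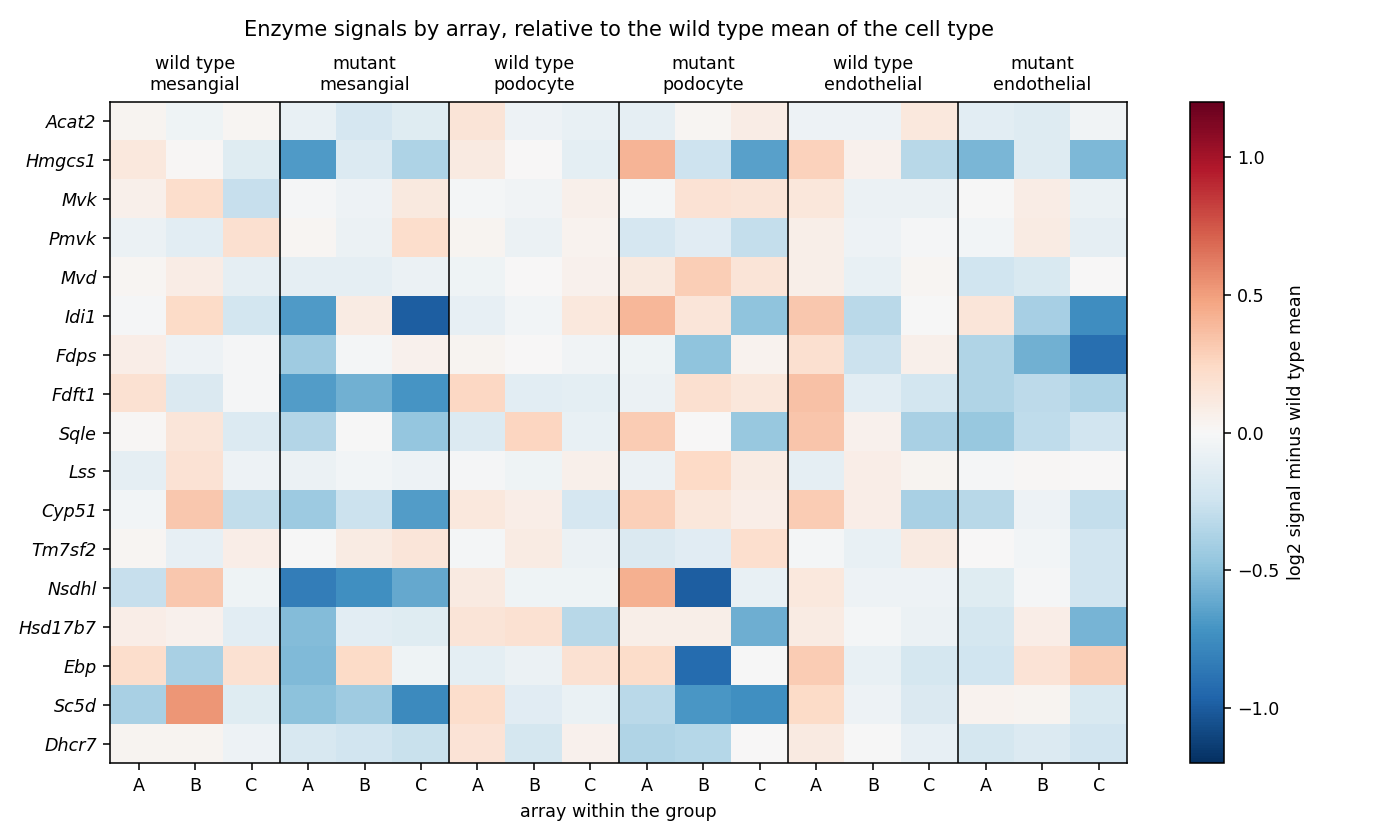
The 17 enzymes (rows) in the 18 arrays (columns), coloured by the log2 signal minus the mean of the wild type arrays of the same cell type, with red above and blue below it. The mutant mesangial arrays are mostly blue for *Fdft1*, *Nsdhl* and *Sc5d*, the mutant podocyte arrays are mixed, and wild type endothelial array A is redder than arrays B and C.

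None of the 5 genes of the SREBP machinery was called. *Srebf2*, the factor that chiefly drives the sterol enzymes, was at 139, 152 and 126 in wild type and 103, 123 and 110.1 in mutant mesangial arrays, which did not overlap. Its log2 difference of -0.31 ± 0.11 (SE) was under the fold limit (adjusted p = 0.171). *Srebf1*, whose products chiefly drive fatty acid synthesis, was at 93.8, 88.0 and 89.8 and 106, 86.8 and 96.6, with overlap. *Insig1*, itself an SREBP target, ranged from 134 to 165 in wild type and from 129.6 to 148 in mutant arrays. *Insig2* was at 373, 373.8 and 385 and 394, 367 and 411, with a log2 difference of 0.05 ± 0.08 (SE) and an interval of -0.14 to 0.24. *Scap* had a difference of 0.12 ± 0.13 (SE) (log2).

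On the export side, *Abca1* was at 94.02, 125 and 144 in wild type mesangial arrays and 278, 208 and 214 in mutant ones. The lowest mutant array was well above the highest wild type array. The log2 difference was 0.96 ± 0.19 (SE), with an adjusted p of 0.0497, and it kept its call without any 1 array (0.79 to 1.10). *Abcg1*, which exports cholesterol to HDL particles, was at 92.0, 101 and 120.0 and 128, 132 and 159.8, without overlap and in the same direction. Its log2 difference of 0.43 ± 0.14 (SE) was under the fold limit (adjusted p = 0.142). The third LXR target, *Mylip*, did not separate the genotypes: it was at 268, 259.5 and 283 in wild type and 324, 233 and 287 in mutant arrays. Of the receptors, *Nr1h3* (LXR alpha) was dim, at 111, 79.0 and 78.4 and 74.0, 61.4 and 83.5, overlapping, with a log2 difference of -0.29 ± 0.18 (SE). *Nr1h2* (LXR beta) had a log2 difference of 0.12 ± 0.08 (SE), under the fold limit. Every mutant array of *Nr1h2* (96.4 to 103) was above every wild type array (89.7 to 95.2). *Soat1*, which esterifies cholesterol for storage, had a log2 difference of 0.11 ± 0.12 (SE) and overlapping arrays.

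*Stard4* was at 90.2, 115 and 146 in wild type mesangial arrays and 87.4, 63.4 and 73.3 in mutant ones, so the groups lay just apart. Its log2 difference was -0.63 ± 0.20 (SE) (adjusted p = 0.141). It was brightest in wild type array C, whose endothelial markers are given above, and the part of endothelial RNA in the difference was not tested. Without that array the log2 difference was -0.46 and the call was lost. Without mutant array B it was -0.52, also short of the call. In sorted cells of this kind, fewer cells of a type and less RNA per cell cannot be told apart.

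**Figure D2:**
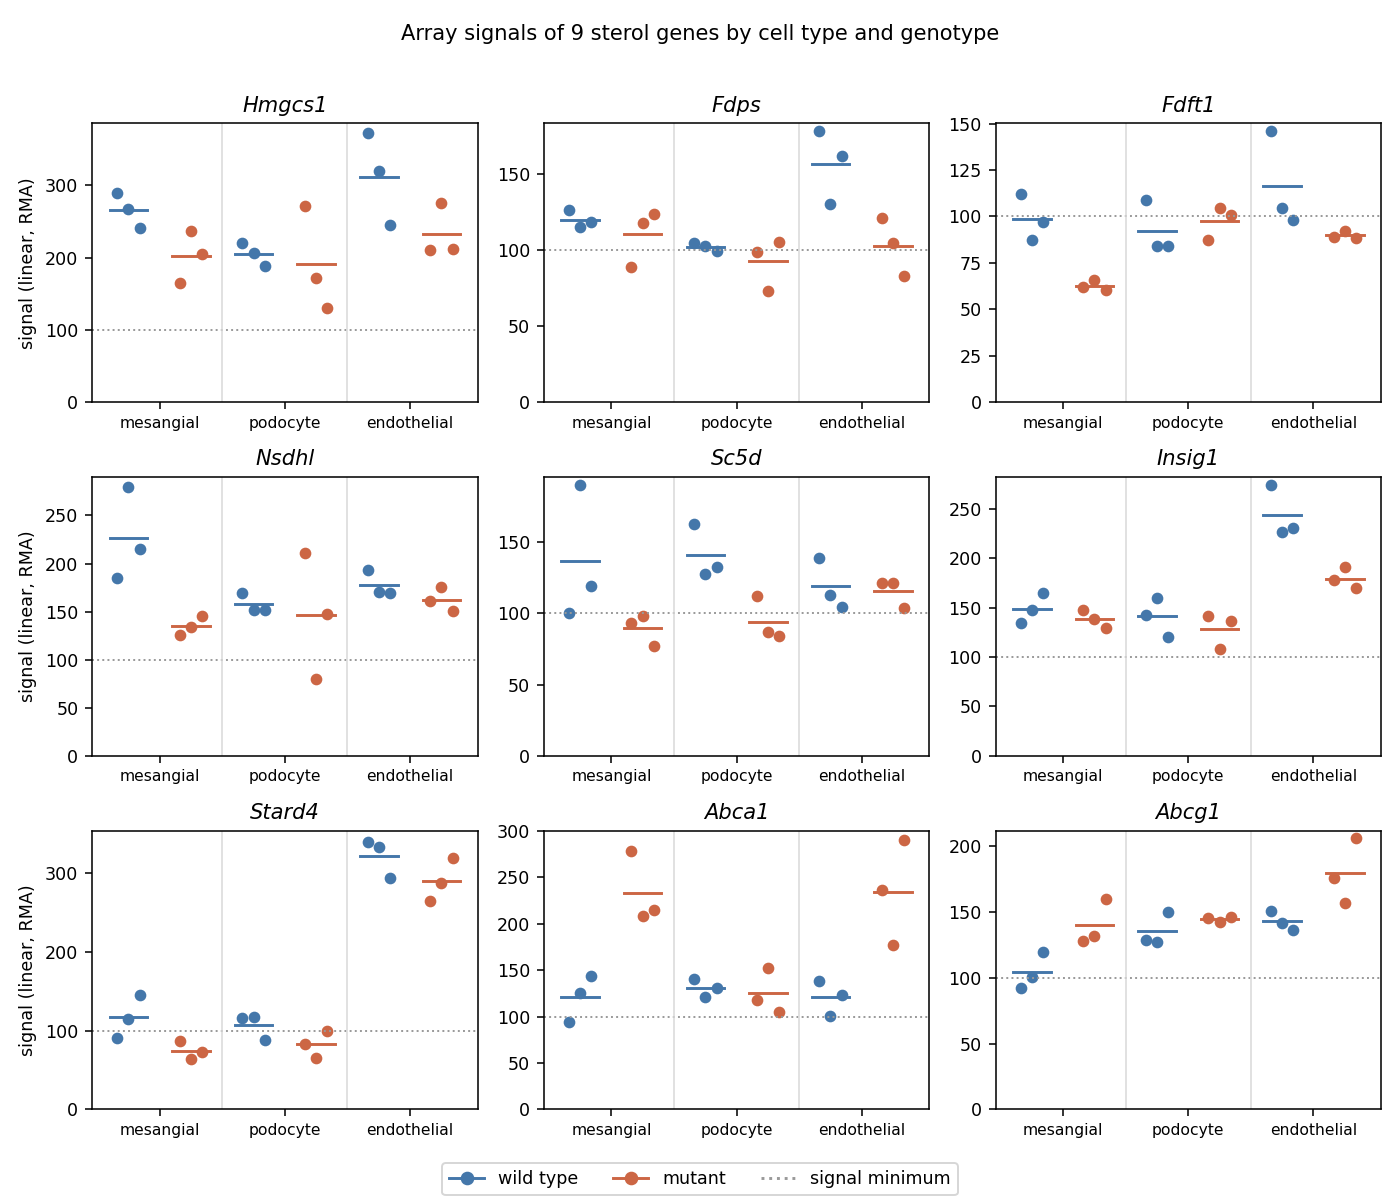
Signals of 9 sterol genes on a linear scale from 0, each point 1 array, with a bar at the mean of 3 arrays and a dotted line at the minimum of 100. *Abca1* is higher in all mutant mesangial arrays and all endothelial arrays labelled mutant than in their wild type arrays, while the podocyte arrays overlap.

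In *Cd2ap* mutant podocytes few sterol genes differed. Of 20 members tested, none was called higher and only *Sc5d* was called lower, by 1.5 fold. Of all 12113 clusters tested, 1.26% were called higher and 4.34% lower, so the 1 lower call is near the share of all clusters. No member had an adjusted p under 0.05, which 0.0578% of all clusters had.

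*Sc5d* was at 163, 128 and 133 in wild type and 112, 86.6 and 83.9 in mutant podocytes. All mutant arrays were below all wild type arrays, by -0.59 ± 0.17 (SE) on the log2 scale (adjusted p = 0.209). The call barely met the fold limit. It was lost without mutant array B (-0.53), mutant array C (-0.51) or wild type array A (-0.48), and after quantile normalization (-0.57). The mutant podocyte arrays also held less endothelial and mesangial marker signal, as given above, and its part in the difference was not tested.

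Several enzymes varied widely among the mutant podocyte arrays. *Hmgcs1* was at 221, 206 and 189 in wild type and 271, 172 and 129.8 in mutant arrays, so mutant array A lay above and arrays B and C below every wild type array. *Nsdhl* was at 169, 151 and 151 and 211, 79.4 and 147, with mutant array A again the highest and B the lowest of the 6. Mutant array A also had the highest endothelial marker sum of the mutant podocyte arrays (2580 against 1184 and 762). The same held for its mesangial (2024 against 1560 and 755) and leukocyte sums (1209 against 828 and 853). The part of other cells in these values was not tested. *Fdps* was at 104, 103 and 99.3 and 98.7, 73.2 and 105, and *Mvk* at 89.9, 88.8 and 95.4 and 89.6, 103 and 102. For *Fdft1* the values were 109, 84.1 and 84.3 and 87.2, 105 and 101, a log2 difference of 0.09 ± 0.15 (SE) with an interval of -0.27 to 0.44. The 2 clusters shared with *Ctsb* had log2 differences of 0.02 and 0.03 there. *Idi1* was at 43.9, 46.1 and 51.5 and 62.0, 51.9 and 33.8, and *Lss* at 66.6, 64.9 and 70.0 and 63.8, 79.0 and 72.02. Neither reached the minimum. Of the 17 enzymes, 10 had a lower mean in mutant podocytes, beside 38.6% of all clusters and 56.2% of the clusters tested. Their median log2 difference was -0.05, beside 0.03 over all clusters and -0.04 over those tested. It moved between -0.17 and 0.06 as single arrays were left out. For the enzymes, 2 of the 17 (*Pmvk* and *Sc5d*) lay wholly below the wild type arrays and 1 (*Mvd*) wholly above, where 7.35% and 9.6% of all clusters did.

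None of the control and export genes was called between podocyte genotypes. *Srebf1* was at 102, 93.3 and 105 in wild type and 109.7, 129 and 119 in mutant podocytes, the mutant arrays all being above the wild type ones. Its log2 difference was 0.25 ± 0.12 (SE), with an adjusted p of 0.404. *Insig2* was at 308, 299 and 284 and 344, 329.5 and 219.7, the lowest value being mutant array C. *Abca1* was at 140.3, 121 and 131 and 118, 152 and 105. These overlapped, with a log2 difference of -0.08 ± 0.16 (SE) and an interval of -0.47 to 0.30. *Abcg1* had a log2 difference of 0.10 ± 0.12 (SE). *Mylip* was at 221, 263 and 257 and 149, 199.9 and 221, with a log2 difference of -0.39 ± 0.18 (SE) and an adjusted p of 0.364. *Stard4* was at 117, 118 and 88.3 and 82.7, 65.3 and 99.9, with a difference of -0.39 ± 0.20 (SE) (log2). *Nr1h3* stayed below the minimum, at 52.5, 63.3 and 78.2 and 72.5, 59.1 and 58.8.

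In endothelial cells labelled mutant, *Abca1* was called higher by 1.92 fold and *Fdps* lower by 1.53 fold, among 19 members tested. Of all 11330 clusters tested, 2.96% were called higher and 0.865% lower. No member had an adjusted p under 0.05, which 1.29% of all clusters had.

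*Abca1* was at 138, 101 and 123 in wild type endothelial arrays and 236, 177 and 291 in those labelled mutant. The groups did not overlap. The log2 difference was 0.94 ± 0.19 (SE), with an adjusted p of 0.0641, and the call held without any 1 array (0.77 to 1.13). *Abcg1* was at 151, 142 and 137 and 176, 157 and 206, again without overlap, by 0.32 ± 0.12 (SE) on the log2 scale (adjusted p = 0.215). *Mylip* was at 343, 265 and 321 and 410.0, 371 and 327, with 1 array labelled mutant inside the wild type range and a log2 difference of 0.26 ± 0.13 (SE). *Nr1h3* was dim, at 61.3, 50.4 and 54.96 and 50.9, 50.9 and 59.7, and was not tested. *Stard4* was at 340.5, 333 and 294 and 264, 288 and 319, with overlap, and its log2 difference was -0.15 ± 0.11 (SE). Leukocytes also express *Abca1*. The leukocyte sum was 1485 in array A labelled mutant and 798 in array C, which had the highest *Abca1*. The part of leukocyte RNA in the difference was not tested.

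*Fdps* was at 178, 130.0 and 162 in wild type endothelial arrays and 121, 104 and 82.9 in those labelled mutant, without overlap. The log2 difference was -0.61 ± 0.17 (SE) (adjusted p = 0.132). The call was lost without the array C labelled mutant (-0.47), without wild type array A (-0.52) or C (-0.58), and after the array medians were subtracted (-0.54). *Fdft1* was at 146, 105 and 98.2 and 88.8, 92.1 and 88.3. Every array labelled mutant was again below every wild type array, by -0.35 ± 0.15 (SE) on the log2 scale, under the fold limit (adjusted p = 0.266). Of the 2 clusters shared with *Ctsb*, the one listing *Fdft1* first had a log2 difference of -0.32 and the other of 0.11. *Hmgcs1* was at 372, 319.8 and 245 and 209.8, 276 and 212, with overlap, and its log2 difference was -0.42 ± 0.17 (SE). The other enzymes differed less. *Nsdhl* was at 193, 170.0 and 169.7 and 161, 176 and 151, and *Sc5d* at 139, 113 and 105 and 121, 121 and 104. *Mvk* was at 91.5, 79.3 and 79.1 and 82.6, 88.4 and 78.8, *Idi1* at 97.7, 62.2 and 77.9 and 86.2, 59.0 and 46.5, and *Lss* at 43.2, 49.1 and 47.6 and 46.0, 47.0 and 46.6. These 3 were below the minimum and not tested.

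*Insig1*, the feedback gene with the E box printed above, was at 274, 226 and 231 in wild type endothelial arrays and 178, 191 and 169.8 in those labelled mutant. The groups were well apart, by -0.44 ± 0.11 (SE) on the log2 scale, but under the fold limit (adjusted p = 0.106). *Insig2* was at 330.0, 296 and 263 and 332, 348 and 353, with a log2 difference of 0.22 ± 0.11 (SE) and an adjusted p of 0.307. *Srebf2* had a log2 difference of -0.23 ± 0.12 (SE). *Srebf1*, at 96.3, 89.0 and 92.7 and 89.5, 94.8 and 87.2, was below the minimum.

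Of the 17 enzymes, 14 had a lower mean in the endothelial arrays labelled mutant, where 59.1% of all clusters did. Among the clusters tested the share was 35.1%. The median log2 difference of the enzymes was -0.14, beside -0.03 over all clusters and 0.07 over those tested. For 3 of the 17 (*Fdps*, *Fdft1* and *Dhcr7*) every array labelled mutant was below every wild type array, as for 14.1% of all clusters. No enzyme lay wholly above, where 8.34% of all clusters did. Wild type array A had the highest signal of its group for 14 of the 17 enzymes, beside 46.8% of the clusters that reached the minimum. Without that array the median was -0.11, and over all arrays left out singly it ran from -0.19 to -0.11.

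**Figure D3:**
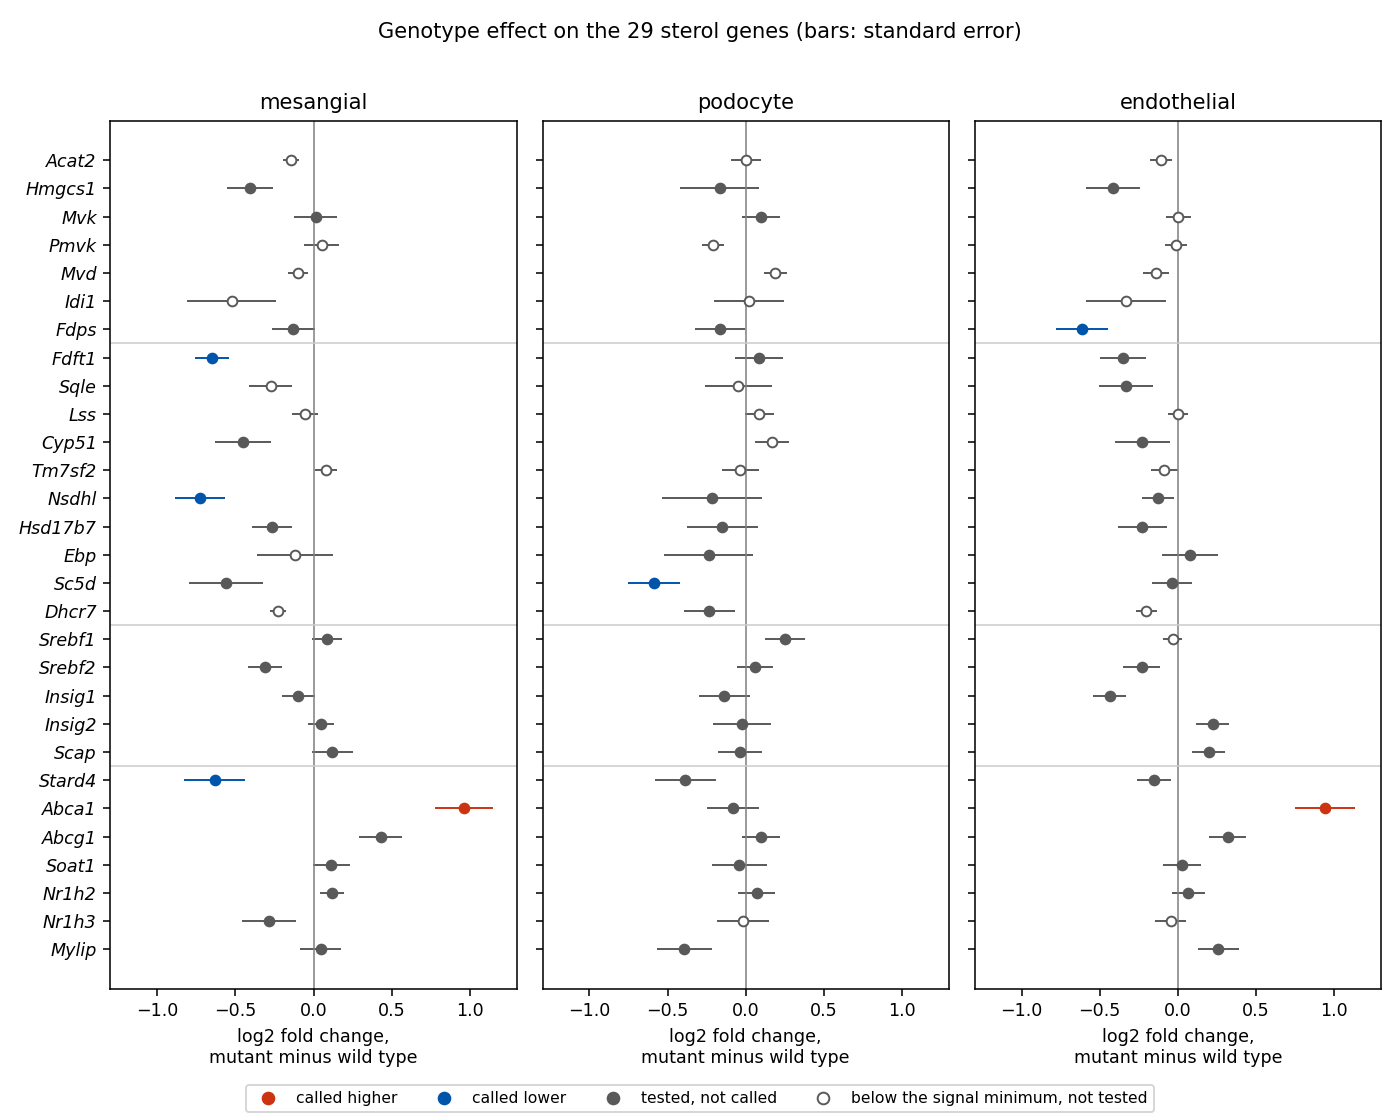
Log2 difference, mutant minus wild type, for the 29 sterol genes in each cell type, with bars for the standard error of the limma fit and lines between the mevalonate, sterol branch, control and transport genes. *Abca1* stands to the right in mesangial (0.96) and endothelial cells (0.94) and near 0 in podocytes (-0.08), and open points were below the minimum.

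Whether the genotype effect differed between cell types was tested as an interaction over all 18 arrays. The mesangial control columns carry the plus and minus sign named above. In contrasts with mesangial cells, a difference in control genotype and one in cell type therefore cannot be told apart. Of 23 members tested, none had an adjusted p under 0.05 in any of the 3 limma contrasts, where 0.717% (podocyte against mesangial), 1.07% (endothelial against mesangial) and 2.11% (endothelial against podocyte) of all clusters did. At an unadjusted p under 0.05 there were 4, 0 and 4 members, where 12%, 15.9% and 23.4% of all clusters passed. The effect on *Abca1* was smaller in podocytes than in mesangial cells by a log2 difference of -1.04 ± 0.28 (SE), with an interval of -1.64 to -0.44 and an adjusted p of 0.124. It was larger in endothelial cells than in podocytes by 1.02 ± 0.28 (SE) (log2), with an adjusted p of 0.0675. Between endothelial and mesangial cells the effect on *Abca1* differed by -0.02 ± 0.28 (SE) (log2), with an interval of -0.62 to 0.58. For *Fdft1* the podocyte effect lay above the mesangial one by 0.73 ± 0.20 (SE) (log2; adjusted p = 0.135). For *Fdps*, called in endothelial cells alone, the endothelial minus mesangial difference was -0.48 ± 0.24 (SE) (log2; adjusted p = 0.326). For *Sc5d*, called in podocytes alone, the podocyte minus mesangial difference was -0.02 ± 0.28 (SE) (log2; adjusted p = 0.985). Its endothelial minus podocyte difference was 0.55 ± 0.28 (SE) (log2; adjusted p = 0.244). The effects on *Fdps* and *Sc5d* were therefore not shown to belong to a single cell type.

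The 3 cell types differed in a few sterol genes among the arrays recorded as wild type. The mesangial ones among these carry the plus and minus sign named above, so a difference in control genotype and one in cell type cannot be told apart for them. Among the 9 wild type arrays, a call required an adjusted p under 0.05 and a fold change over 1.5, and 23 members were tested. *Stard4* and *Insig1* were highest in endothelial cells and the storage enzyme *Soat1* in mesangial cells. Against endothelial cells, podocytes were lower in 5 members (*Hmgcs1*, *Fdps*, *Sqle*, *Insig1* and *Stard4*) and higher in 0, where 11.6% and 9.83% of all 12537 clusters were called. Mesangial cells were lower than endothelial cells in 2 (*Insig1* and *Stard4*) and higher in 2 (*Soat1* and *Nr1h3*), where 7.91% and 9.58% were called. Podocytes were higher than mesangial cells in 1 (*Ebp*) and lower in 1 (*Soat1*), where 5.9% and 9.24% were called. *Sqle* and *Nr1h3* reached the minimum only in arrays of the cell type where they were high (2 endothelial arrays and 1 mesangial array), so they carry no weight in these counts. Without the minimum their adjusted p values were 0.0613 and 0.0349, and that of *Ebp*, which no mesangial array brought to the minimum, was 0.0813.

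*Stard4* had a mean of 322 ± 25.1 (SD, n = 3) in wild type endothelial cells, 117 ± 27.8 in mesangial cells and 107 ± 16.6 in podocytes. The endothelial mean was 3.02 fold that of podocytes and 2.8 fold that of mesangial cells, with adjusted p values of 0.000105 and 0.000191. Podocytes and mesangial cells did not differ beyond their spread. *Insig1* had the same order, at 244 ± 26.4 in endothelial, 149 ± 15.3 in mesangial cells and 141 ± 19.7 in podocytes. Its endothelial level was 1.73 fold that of podocytes (adjusted p = 0.00116) and 1.64 fold that of mesangial cells (adjusted p = 0.00271). *Hmgcs1*, *Fdps* and *Sqle*, which makes the epoxide of squalene, were 1.5, 1.52 and 1.51 fold higher in endothelial cells than in podocytes, all just over the fold limit. Without wild type endothelial array A, the highest for each of these 3, only 2 members stayed called lower in podocytes.

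*Soat1* ran the other way. Its mean was 292 ± 31.6 (SD, n = 3) in mesangial cells, 186 ± 33.1 in podocytes and 135 ± 16.6 in endothelial cells. The mesangial level was 2.16 fold the endothelial one (adjusted p = 0.000346) and 1.58 fold that of podocytes (adjusted p = 0.00826). *Nr1h3* was at 89.4 ± 18.5 in mesangial and 55.6 ± 5.52 in endothelial cells, a 1.59 fold difference (adjusted p = 0.0165) with 1 of these 6 arrays at the minimum. *Ebp*, a sterol isomerase, was at 104 ± 11.9 in podocytes and 70.1 ± 15.3 in mesangial cells, 1.5 fold (adjusted p = 0.0427). *Abca1* was called between no pair of wild type cell types, with means of 121 ± 18.8 in endothelial cells, 121 ± 25.1 in mesangial cells and 131 ± 9.5 in podocytes. Endothelial markers in wild type podocytes, and podocyte and endothelial markers in wild type mesangial array C, move with these comparisons, and their part was not tested.

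**Figure D4:**
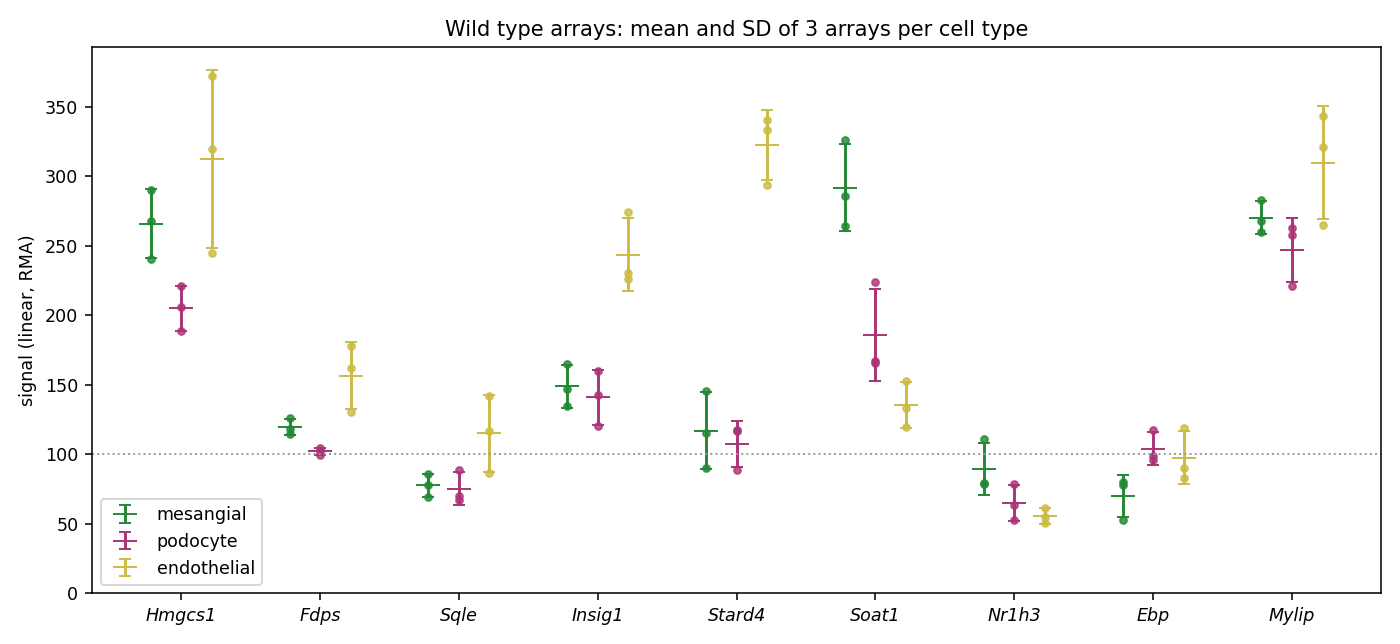
Signals of 9 sterol genes in the 9 wild type arrays, with points for single arrays, and the mean and SD of 3 arrays for each cell type on a linear axis from 0. *Stard4* and *Insig1* are highest in endothelial cells and *Soat1* in mesangial cells, while *Mylip*, shown for comparison, was called between no pair.

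Other genes of the pathway were read from lists of 27 further sterol genes, 25 of which had a row, and of 13 fatty acid genes driven by SREBP-1. Those named were chosen after their values were seen. None had an adjusted p under 0.05 for the genotype within a cell type. Among the further sterol genes, 19 were tested in mesangial cells and 1 was called lower (3.12% of all clusters were), *Sc4mol* (now *Msmo1*), a sterol methyl oxidase that works just before *Nsdhl*. It was at 156, 175 and 116 in wild type and 89.6, 84.2 and 99.3 in mutant arrays, without overlap, by -0.69 ± 0.16 (SE) on the log2 scale (adjusted p = 0.0754), and it too reached the minimum in wild type arrays only. In podocytes 18 of these genes were tested and 1 was called lower (4.34% of all clusters were), *Lipa*, the lysosomal lipase that frees cholesterol from its esters. It was at 223, 200.1 and 169.9 and 193, 90.5 and 95.3, with overlap, by -0.73 ± 0.29 (SE) on the log2 scale (adjusted p = 0.325). Its endothelial effect lay above its podocyte effect by 1.26 ± 0.31 (SE) (log2; adjusted p = 0.0498, and 0.0656 without the minimum). In endothelial cells 19 were tested and 1 was called higher (2.96% of all clusters were), *Ch25h*, which makes 25-hydroxycholesterol, an oxysterol that restrains SREBP. It was at 222, 89.7 and 78.0 and 413, 305 and 197, with overlap, by 1.33 ± 0.41 (SE) on the log2 scale (adjusted p = 0.17). Array A labelled mutant had the highest *Ch25h* and the highest leukocyte sum (1485), while wild type array A, with the highest *Ch25h* of its genotype, had the lowest leukocyte sum of the 6 (738). The part of leukocyte RNA was not tested.

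Of the fatty acid genes, 7 were tested in mesangial cells, 9 in podocytes and 7 in endothelial cells, and only podocytes had calls, 1 higher and 1 lower, where 1.26% and 4.34% of all clusters were called. *Fads2*, a fatty acid desaturase, was at 91.2, 57.9 and 78.0 in wild type and 119.9, 135 and 140.5 in mutant podocytes, higher by 0.82 ± 0.18 (SE) on the log2 scale (adjusted p = 0.154). It reached the minimum in mutant podocyte arrays only. Its podocyte effect lay above the mesangial one by 1.11 ± 0.20 (SE) (log2; adjusted p = 0.0156, and 0.0244 without the minimum), and its endothelial effect differed from the podocyte one by -1.01 ± 0.20 (SE) (log2; adjusted p = 0.0237, and 0.0282 without the minimum). *Elovl5*, a fatty acid elongase, was at 324, 243 and 239 and 114, 156 and 226, lower by -0.74 ± 0.26 (SE) (log2; adjusted p = 0.267). In mesangial cells 6 of the 13 lay wholly below the wild type arrays and 0 above, where 8.9% and 10.4% of all clusters did. Their median log2 difference there was -0.18, beside -0.23 for the 17 sterol enzymes. In podocytes the median of the fatty acid genes was -0.23, with 4 of the 13 wholly below and 1 above, where 7.35% and 9.6% of all clusters were. In endothelial cells it was 0.02, with 1 wholly below and 1 above, where 14.1% and 8.34% were.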

How the data were processed

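Total RNA of the GFP positive cells went through one round of linear amplification (Ribo-SPIA) before hybridization to the arrays, whose annotation is on mm9. The intensity values the authors deposited are linear signals that, by the sample records, were made by RMA. A further 18 columns hold a normalized form of the arrays and were not used. The methods name GeneSpring, and the series record names Exon arrays and GeneBASE, which the file header does not. RNA-seq was not analysed here.

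Log2 signals were fitted with limma 3.58.1 (lmFit and eBayes, R 4.3.3), within each cell type for the genotypes and without covariates. Each fit covered all clusters that passed the minimum of 100, and its two-sided p values were adjusted over them. The fits were tested on simulated data. The members and lists were chosen with earlier results of these data known. By rule, a member has its value in every array where it is *Fdft1*, *Fdps* or *Mvk*, was called in a genotype comparison, or has the highest or lowest mean of its role group, a ranking across probes that served only to choose which values to print. *Abcg1*, *Insig1* and *Srebf2* were chosen after their values were seen. Some items are not reported here. The study calls its replicates independent and biological, but the labels do not tie arrays to animals, so p values measure the spread between arrays, and 3 arrays per group limit the precision. Alternatives were other minimums, fits, normalizations and clusters, and each array left out in turn.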

Additional observations from a re-analysis of the deposited data

How the results depend on the processing

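Under the alternatives, 247 of the single-gene values kept their direction and their side of the threshold. Of the counts and medians, 226 were classed as unchanged, a class that allowed small shifts. For example, the members called lower in mutant mesangial cells went from 3 to 2 without mutant array B and stayed in that class. Of the other counts and medians, 34 moved further and 1 changed sign. Of the single-gene values, 12 changed sign, 17 lost their call and 1 gained one. The members called lower in mutant mesangial cells went from 3 to 1 with the minimum required in all 3 arrays of a genotype, and to 1 with adjusted p values. Without a minimum, the adjusted p of *Abca1* rose to 0.0902 and that of *Fdft1* to 0.0524. The 1 lower in podocytes went to 0 with adjusted p values and with quantile normalization. In endothelial cells, the 1 higher and the 1 lower each went to 0 with adjusted p values, and the 1 lower also to 0 with array medians subtracted. Between wild type podocytes and mesangial cells, the 1 higher went to 0 without a minimum, with quantile normalization and with all 18 arrays in 1 fit, and to 2 with the brightest cluster per gene. The 1 lower went to 0 with quantile normalization. With the brightest cluster, *Fdft1*, then shared with *Ctsb*, had a log2 difference of 0.19 in mesangial and 0.11 in endothelial cells. With array medians subtracted, *Mvk* in mesangial cells was at -0.0022 and *Sc5d* in endothelial cells at 0.036. *Mvk* was at -0.084 without wild type array C and mutant array B, a pair of arrays left out after the data were seen. The interactions under other settings were also added then.

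As single arrays were left out, the members called lower ran from 2 to 3 in mesangial cells, 0 to 1 in podocytes (lost without mutant array B, mutant array C or wild type array A) and 0 to 1 in endothelial cells (lost without array C labelled mutant or wild type arrays A or C). The median of the enzymes in podocytes ran from -0.17 to 0.059. Among wild type cells, podocytes against mesangial cells ran from 0 to 1 higher and 1 to 2 lower, podocytes against endothelial cells from 2 to 5 lower, and mesangial against endothelial cells from 1 to 2 higher. The endothelial minus podocyte interaction ran from 0 to 1, with 1 called without endothelial array B labelled mutant, mutant podocyte array A or mutant podocyte array B. Log2 differences that crossed 0 included those of *Fdps* (-0.22 to 0.016) and *Mvk* (-0.12 to 0.052) in mesangial cells. They also included *Nsdhl* (-0.54 to 0.17) and *Abca1* (-0.23 to 0.037) in podocytes, and *Sc5d* in endothelial cells (-0.12 to 0.081). This list is not complete for all members, and *Hmgcs1* in podocytes also changed sign without mutant array C. The cause of these changes was not tested. *Fdft1* and *Mvk* in mesangial cells could not be fitted without 1 wild type array each, since they then fell below the minimum. No paired analysis was possible because the array columns carry no replicate numbers shared between groups.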
